A study of Mus musculus with 12 samples.

Results

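The 10 genes of the spindle checkpoint and of the mitotic kinases were followed in mouse germ cells and germ cell-like cells made in vitro. All were measured on 12 single-colour Affymetrix 3' arrays. The members are the kinase genes Aurka, Aurkb, Aurkc, Plk1 and Plk4, the checkpoint genes Bub1, Bub1b and Mad2l1, Cdc20, whose product activates the anaphase-promoting complex, and Cdc25c, a phosphatase gene. They were taken as every probe set annotated to one of these symbols and to no other, which gave 20 of the 45101 probe sets on the array. All 10 genes were among the 14197 genes tested, and 19 of the 20 probe sets passed the filter on low signal. The exception was a second Aurka probe set, at or under the floor of 30.7 units on 6 of 12 arrays.

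Each of the 4 groups had 3 arrays, which the labels call biological replicates. Spermatid-like cells (SLC) were made in vitro, with the culture time not stated. Round spermatids (RS), the haploid cells that follow meiosis, came from the testis of BDF1 mice at 3 weeks. Primordial germ cell-like cells (PGCLC) were collected on day 6 of differentiation in vitro, and primordial germ cells (PGC), the fetal precursors of sperm, from the genital ridge of male BDF1 fetuses at E12.5. All cells were sorted by FACS with the gate not stated. The labels do not name the cell line behind either in vitro group, give no transgene or treatment for any group, and do not say whether animals were pooled. Values are deposited signals in linear intensity units, with the same trimmed mean on each array as deposited. Signals of different probe sets cannot be set against each other, so levels are compared between groups only.

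Aurora and Polo kinases drive the mechanics of cell division. Aurora A works at the spindle poles, Aurora B with the chromosomal passenger complex at centromeres, and Aurora C takes a similar place in meiotic cells, while Plk1 acts from mitotic entry to exit and Plk4 starts centriole duplication. The spindle checkpoint, with Bub1, BubR1 (encoded by Bub1b) and Mad2 (Mad2l1), holds Cdc20 back until every chromosome is attached, and Cdc25 phosphatases switch on the kinase Cdk1. In the testis these genes serve both the mitotic divisions of early germ cells and the meiotic divisions, and round spermatids no longer divide.

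Promoters of dividing-cell genes often carry a cell cycle genes homology region (CHR), through which their transcription follows the cell cycle, and CCAAT boxes. Windows of 250 bases before to 50 after the start site, from RefSeq on GRCm38.p6, were at hand for 8 of the 10 genes, all but Aurkb and Cdc25c. Searched on both strands, TTTGAA, the core of the CHR, was present in 4 of the 8 windows, against 17.9% of all 32851 promoter windows of that length. CCAAT was present in 6, against 37.4%, and both motifs in 4, against 6.95%. The CHR matches of Plk1, Aurka, Bub1b and Cdc20 began at positions 31, 33, 41 and -18 from the start site. The windows of Mad2l1 and Plk4 held neither motif. Sequences are shown for the 4 genes with both motifs and for Mad2l1, whose signal differed most between RS and PGCs among the 10. On their brightest probe sets, Plk1 and Aurka had their highest signal in RS and Bub1b and Cdc20 in PGCs. Capitals mark the CHR and CCAAT matches on either strand, and a match is a description of the letters only.
Plk1 (chr7:122159185-122159484, + strand): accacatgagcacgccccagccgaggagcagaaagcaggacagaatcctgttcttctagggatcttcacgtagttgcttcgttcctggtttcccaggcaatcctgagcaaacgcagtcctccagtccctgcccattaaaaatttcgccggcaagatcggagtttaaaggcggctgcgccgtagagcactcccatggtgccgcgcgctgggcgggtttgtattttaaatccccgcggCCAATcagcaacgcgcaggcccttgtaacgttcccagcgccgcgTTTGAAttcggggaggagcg
Aurka (chr2:172370521-172370820, - strand): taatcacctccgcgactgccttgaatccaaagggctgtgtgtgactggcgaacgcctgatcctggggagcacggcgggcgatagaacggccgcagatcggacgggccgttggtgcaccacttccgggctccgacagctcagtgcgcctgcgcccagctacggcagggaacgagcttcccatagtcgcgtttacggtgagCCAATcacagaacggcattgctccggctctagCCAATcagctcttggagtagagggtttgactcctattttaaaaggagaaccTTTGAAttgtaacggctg
Bub1b (chr2:118597961-118598260, + strand): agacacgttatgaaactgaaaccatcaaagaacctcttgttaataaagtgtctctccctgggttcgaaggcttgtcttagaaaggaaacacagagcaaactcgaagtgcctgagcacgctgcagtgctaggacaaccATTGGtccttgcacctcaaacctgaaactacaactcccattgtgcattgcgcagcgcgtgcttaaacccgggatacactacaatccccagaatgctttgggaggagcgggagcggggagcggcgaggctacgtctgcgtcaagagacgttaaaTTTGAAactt
Cdc20 (chr4:118437294-118437593, - strand): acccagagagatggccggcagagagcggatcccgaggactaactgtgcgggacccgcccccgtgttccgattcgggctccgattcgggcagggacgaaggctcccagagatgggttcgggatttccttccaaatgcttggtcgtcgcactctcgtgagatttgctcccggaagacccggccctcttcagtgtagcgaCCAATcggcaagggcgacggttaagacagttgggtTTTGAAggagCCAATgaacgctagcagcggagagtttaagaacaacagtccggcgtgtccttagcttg
Mad2l1 (chr6:66534971-66535270, + strand): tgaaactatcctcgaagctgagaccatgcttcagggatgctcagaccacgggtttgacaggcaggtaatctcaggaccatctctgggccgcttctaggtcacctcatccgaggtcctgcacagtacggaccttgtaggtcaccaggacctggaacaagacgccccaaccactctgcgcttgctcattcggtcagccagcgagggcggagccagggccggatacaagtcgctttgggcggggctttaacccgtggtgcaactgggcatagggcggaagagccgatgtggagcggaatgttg

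The labels were checked with landmark genes. Prm1, a protamine gene of spermatids, averaged 25368 ± 1593 units in SLCs and 32847 ± 660.3 in RS and lay below the floor on all PGCLC and PGC arrays (SD, n = 3 each). Pou5f1, a pluripotency factor gene kept by PGCs, averaged 84.8 ± 16.01 in SLCs, 188 ± 27.4 in RS, 6468 ± 519 in PGCLCs and 6918 ± 151 in PGCs. SLC arrays also carried RNA of somatic genes. The summed signal of 15 testis somatic markers ran from 95290.5 to 97190.2 units in SLCs and 2798 to 3507 in RS. It ran from 23966 to 27868 in PGCLCs and 16421 to 18427 in PGCs. Cyp11a1 was at the floor on all RS arrays, while Cyp17a1 and Rhox5 averaged less in SLCs (33.9 and 94.6 units) than in RS (109 and 173). The summed signal of 11 markers of pachytene and secondary spermatocytes ran from 65759 to 66920 units in RS and 37678 to 39252 in SLCs. For these markers it was 1911 to 4765 in PGCLCs and 5551 to 6041 in PGCs. Their part in the members' values was not tested. PGCLC arrays were unlike each other, with the germ cell gene Ddx4 at 486, 6507 and 3237 units on replicates 1 to 3, and with correlations across genes of 0.914 to 0.976, against 0.977 to 0.988 between arrays of any other group. No 2 arrays held identical values.

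Across the 4 groups the 10 genes fell into those with the highest mean in PGCs and those with the highest mean in RS, on the brightest probe set of each gene. Aurkb, Plk4, Bub1, Bub1b, Mad2l1 and Cdc20 were highest in PGCs, with the spermatid groups lowest. For Plk4 and Cdc20 this order held on 1 of 3 probe sets each, and for Bub1b not on the probe set near the floor. Aurka, Aurkc, Plk1 and Cdc25c were highest in RS. Between the in vivo stages 2 of the 10 genes rose and 4 fell in RS relative to PGCs, at a limma adjusted p under 0.05 and at least 2-fold, which is what a call means here. Of all genes tested, 31.8% were called higher, 37.7% lower and 69.5% either way in this comparison, so the members were called about as often as genes at large. In a fit of all probe sets, 2 of 19 member probe sets rose and 7 fell, against 26.2% and 41.3% of all probe sets. The arrays are bulk samples, in which fewer cells of a type and less RNA per cell cannot be told apart.

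**Figure D1:**
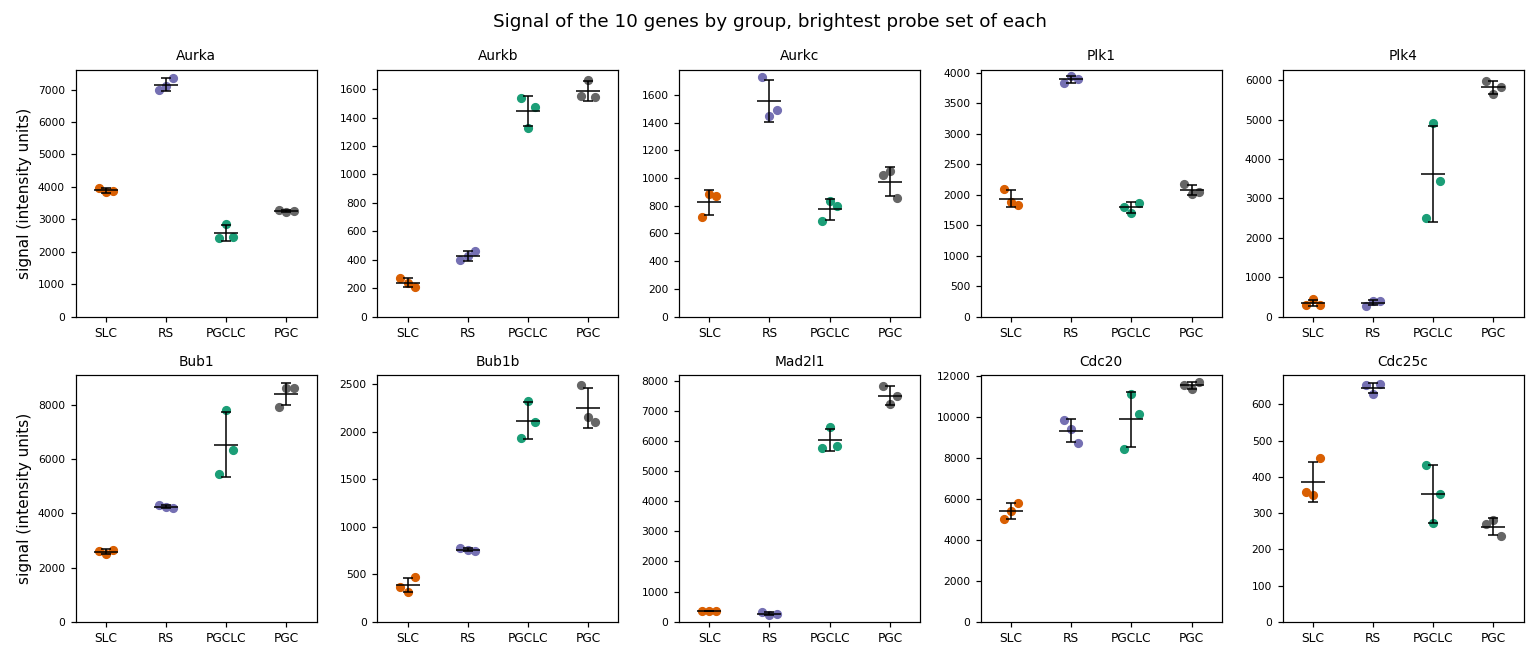
Signal of each of the 10 genes in intensity units (vertical axes, linear and from 0) in SLC, RS, PGCLC and PGC arrays. Points are single arrays, long bars are means and whiskers are SDs of 3 arrays. Mad2l1 lay between 230.5 and 370.4 units on the 6 SLC and RS arrays and at 5775 or more on the 6 PGCLC and PGC arrays. On their brightest probe sets, Aurka, Aurkc, Plk1 and Cdc25c were highest in RS.

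Among the Aurora kinase genes, Aurka had 3973, 3842 and 3868 units in SLCs, 6985, 7108 and 7365 in RS, 2425, 2856 and 2464 in PGCLCs and 3293, 3218 and 3242 in PGCs. No group overlapped another, and the order was RS, SLC, PGC, PGCLC. Aurka rose 2.20-fold in RS relative to PGCs (log2 1.14, SE 0.07, limma adjusted p = 1.56e-08), but by quantile normalization the difference was under 2-fold (log2 0.87). In SLCs it was above PGCLCs by less than 2-fold (log2 0.60, SE 0.07, limma adjusted p = 9.38e-06).

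Aurkb ran the other way. It had 272, 239.6 and 205 units in SLCs, 395, 425 and 462 in RS, 1537, 1326 and 1473 in PGCLCs and 1554, 1664 and 1542 in PGCs. Every SLC and RS array was below every PGCLC and PGC array. The fall was 3.72-fold in RS relative to PGCs (log2 -1.90, SE 0.13, limma adjusted p = 2.74e-08) and 6.08-fold in SLCs relative to PGCLCs (log2 -2.60, SE 0.13, limma adjusted p = 2.58e-09). A second Aurkb probe set, read in a fit of all 24949 filtered probe sets, fell as well in both comparisons (log2 -2.36 and -2.64, limma adjusted p = 1.91e-07 and 1.15e-07). The suffixes of both Aurkb probe sets (_x_at and _s_at) mark probes that can match more than a single transcript, so signal from related genes was not separated. The same limit holds for the brightest Plk4, Bub1b and Cdc20 probe sets, the dimmest Cdc20 one and the second Cdc25c one, which carry these suffixes too.

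Aurkc, the Aurora gene known for its role in meiosis, had 719.7, 883 and 867 units in SLCs, 1730.3, 1447 and 1489 in RS, 691, 833 and 796 in PGCLCs and 1019.9, 1048 and 855 in PGCs. RS arrays were above all others, and SLC, PGCLC and PGC arrays overlapped in part. The RS level was 1.60-fold that of PGCs, short of 2-fold (log2 0.68, SE 0.13, limma adjusted p = 0.0004). Between SLCs and PGCLCs the difference was small (log2 0.09, 95% interval -0.19 to 0.37, limma adjusted p = 0.544).

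Plk1, the Polo kinase of mitotic entry and exit, had 2089, 1884 and 1835 units in SLCs, 3838, 3937 and 3888 in RS, 1794, 1703 and 1868 in PGCLCs and 2172, 2011 and 2036 in PGCs. It was highest on the RS arrays, with no overlap, while SLC arrays overlapped with both PGCLC and PGC arrays. Its RS level was 1.88-fold that of PGCs, just short of 2-fold (log2 0.91, SE 0.08, limma adjusted p = 2.60e-07). SLCs and PGCLCs differed by log2 0.11 (95% interval -0.05 to 0.28, limma adjusted p = 0.196).

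For Plk4, the kinase gene of centriole duplication, the direction between stages depended on the probe set. Probe set A (1419838_s_at), the brightest by its mean over all arrays, had 298, 442 and 304 units in SLCs, 271, 391 and 399 in RS, 2507, 4915 and 3431 in PGCLCs and 5984, 5657 and 5822 in PGCs. Every SLC and RS array lay far below every PGCLC and PGC array. In the fit of all filtered probe sets it fell in RS relative to PGCs (log2 -4.06, SE 0.24, limma adjusted p = 5.82e-09) and in SLCs relative to PGCLCs (log2 -3.35, SE 0.24, limma adjusted p = 6.81e-08).

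Probe set B (1426580_at) had 1618, 1376 and 1853 units in SLCs, 2534, 3067 and 2896 in RS, 1076, 1816 and 1440.1 in PGCLCs and 2634, 2212 and 2449 in PGCs. Here RS arrays overlapped with PGC arrays, and SLC arrays with PGCLC arrays. The difference between RS and PGCs was log2 0.22 (95% interval -0.16 to 0.60, limma adjusted p = 0.26). Probe set C (1452115_a_at) had 560.3, 658 and 703 units in SLCs, 1189, 1113 and 1175 in RS, 350.5, 588 and 452 in PGCLCs and 641, 841 and 615 in PGCs, with RS arrays above all others. It was higher in RS than in PGCs by less than 2-fold (log2 0.74, SE 0.19, limma adjusted p = 0.00278). Probe sets B and C carry the same accession in the annotation and probe set A carries none there. Where in the Plk4 transcript each one lies was not given, and which of them stands for the whole transcript was not tested. The _s_at suffix of probe set A carries the limit given for Aurkb. All values for Plk4 as a gene below are those of probe set A.

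**Figure D2:**
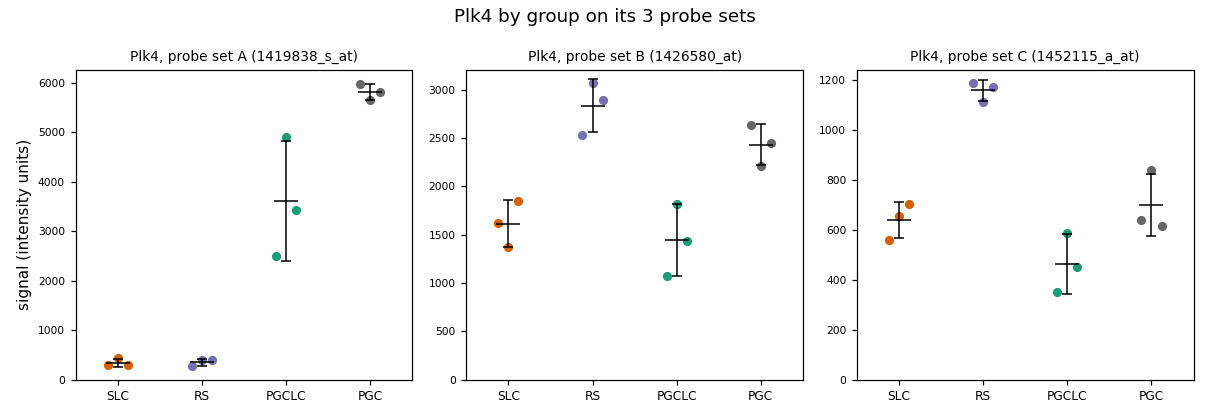
Plk4 signal in intensity units (vertical axes, linear and from 0) on its 3 probe sets in SLC, RS, PGCLC and PGC arrays. Points are single arrays, long bars are means and whiskers are SDs of 3 arrays. Probe set A averaged 354 ± 71.5 units in RS and 5821 ± 163 in PGCs, while probe set C averaged 1159 ± 40.5 in RS and 699 ± 124 in PGCs.

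Of the checkpoint genes, Mad2l1 showed the widest stage difference of the 10. It had 361, 365 and 370.4 units in SLCs, 332, 230.5 and 256 in RS, 5775, 6464 and 5846 in PGCLCs and 7808, 7208 and 7495 in PGCs. No PGCLC or PGC array came near an SLC or RS array. The fall was 27.8-fold in RS relative to PGCs (log2 -4.80, SE 0.12, limma adjusted p = 5.01e-12) and 16.5-fold in SLCs relative to PGCLCs (log2 -4.04, SE 0.12, limma adjusted p = 3.65e-11).

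Bub1b, which encodes the checkpoint protein BubR1, had 369, 319 and 467 units in SLCs, 781, 759 and 742 in RS, 1932, 2321 and 2101 in PGCLCs and 2490.4, 2156 and 2109 in PGCs. SLC and RS arrays were the lower ones throughout, and PGCLC and PGC arrays overlapped. Bub1b fell 2.95-fold in RS relative to PGCs (log2 -1.56, SE 0.14, limma adjusted p = 4.24e-07) and 5.56-fold in SLCs relative to PGCLCs (log2 -2.47, SE 0.14, limma adjusted p = 9.85e-09). A second probe set fell in both as well (log2 -1.23 and -2.08, limma adjusted p = 4.43e-06 and 5.14e-08), the RS difference being under 2-fold by quantile normalization (-0.94). The third lay at or under the floor on 5 of 12 arrays, and no difference passed on it.

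Bub1, the kinase gene of the same checkpoint, had 2608, 2489 and 2661 units in SLCs, 4316, 4225 and 4202 in RS, 5447, 7802 and 6350.4 in PGCLCs and 7924, 8614 and 8625 in PGCs. The SLC and RS arrays were lowest, and none of them reached the PGCLC or PGC range. Bub1 fell 2.50-fold in SLCs relative to PGCLCs (log2 -1.32, SE 0.11, limma adjusted p = 2.82e-07), while its RS level, 1.97-fold below that of PGCs, stopped just short of 2-fold (log2 -0.98, SE 0.11, limma adjusted p = 2.94e-06). The RS difference passed it by quantile normalization (log2 -1.20), with the median over probe sets (-1.55) and without PGC replicate 1 (-1.02). A second probe set fell past 2-fold in both comparisons (log2 -2.46 in SLCs relative to PGCLCs and -2.11 in RS relative to PGCs, limma adjusted p = 1.61e-05 and 4.40e-05).

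Cdc20, the target that the checkpoint restrains, did not reach a 2-fold difference in either stage comparison. Its brightest probe set had 5010.3, 5417 and 5788 units in SLCs, 9848, 9417 and 8706 in RS, 8438, 11083 and 10128 in PGCLCs and 11534, 11340.0 and 11693 in PGCs. SLC arrays were lowest, and RS arrays overlapped with PGCLC arrays. RS and PGCs were close (log2 -0.31, SE 0.09, limma adjusted p = 0.00952), and SLCs were below PGCLCs by less than 2-fold (log2 -0.86, SE 0.09, limma adjusted p = 4.34e-06). The 2 other Cdc20 probe sets had the same signs in both comparisons, with differences of log2 -0.15 and -0.53 in RS relative to PGCs. On both of them RS averaged above PGCLCs, at 4644 against 4245 units and 723 against 656 units.

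Cdc25c, the phosphatase gene that acts at the entry into division, had 359, 350.1 and 451 units in SLCs, 652, 629 and 655 in RS, 433, 273 and 353 in PGCLCs and 270.3, 280.2 and 236 in PGCs. RS arrays were highest without overlap, and PGCLC arrays overlapped with both SLC and PGC arrays. Cdc25c rose 2.47-fold in RS relative to PGCs (log2 1.30, SE 0.18, limma adjusted p = 2.14e-05), and with the median over its probe sets the difference was under 2-fold (log2 0.97). On its second probe set the difference was smaller and under 2-fold (log2 0.64, limma adjusted p = 0.0166), and that probe set had 213, 228 and 260.2 units in SLCs, 406, 550.0 and 469 in RS, 459.5, 280.5 and 518 in PGCLCs and 309, 291 and 307 in PGCs. There the RS arrays overlapped with the PGCLC arrays, and the SLC arrays were lowest. The 2 probe sets differ in sign between SLCs and PGCLCs (log2 0.15 and -0.80, limma adjusted p = 0.478 and 0.00536).

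SLCs were set beside RS to ask how far the in vitro cells match spermatids of the testis. Of the 10 members, 9 had a lower fitted value in SLCs and Mad2l1 a higher one. Plk1 and Bub1b fell, and both stood at the threshold itself, at 2.011-fold for Plk1 (log2 -1.01, SE 0.08, limma adjusted p = 4.35e-07) and 2.001-fold for Bub1b (log2 -1.001, SE 0.14, limma adjusted p = 7.25e-05). Plk1 averaged 1936 ± 135 units in SLCs and 3887 ± 49.4 in RS (SD, n = 3 each), and Bub1b 385 ± 75.4 in SLCs and 761 ± 19.3 in RS. On the second Bub1b probe set the difference was log2 -0.96, under 2-fold (limma adjusted p = 0.000116). The third, near the floor, was at log2 -0.09 (limma adjusted p = 0.911). The 2 members called lower stand beside 3.44% of all genes tested. Without the 2-fold minimum, 8 of 10 were lower at an adjusted p under 0.05, against 31.8% of all genes. Of the member probe sets 3 of 19 fell, beside 3.96% of all probe sets.

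The other 8 members were short of 2-fold, and 6 of them lay close together. Aurkc was at log2 -0.92, Aurka at -0.88, Aurkb at -0.85, Cdc20 at -0.79, Cdc25c at -0.75 and Bub1 at -0.72, with limma adjusted p from 7.82e-07 (Aurka) to 0.00311 (Cdc25c). On second probe sets Aurkb was at log2 -0.31 and Bub1 at -0.55, neither past an adjusted p of 0.05 (limma adjusted p = 0.200 and 0.152). The 2 other Cdc20 probe sets were at log2 -0.81 and -0.49 (limma adjusted p = 7.14e-07 and 0.0101). Plk4 was at log2 -0.03 on probe set A (95% interval -0.55 to 0.50, limma adjusted p = 0.934), and it was lower on probe sets B and C, at log2 -0.82 and -0.86 (limma adjusted p = 0.00166 and 0.00188). Mad2l1 was higher in SLCs by less than 2-fold (log2 0.44, SE 0.12, limma adjusted p = 0.00835), and it was lower by quantile normalization (log2 -0.16). The second Cdc25c probe set fell past 2-fold (log2 -1.02, limma adjusted p = 0.00172), but not without SLC replicate 1 (-0.95) or RS replicate 2 (-0.91).

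Markers of other cells moved with this comparison. Of 15 testis somatic markers 13 rose in SLCs, and their part in the members' differences was not tested. The 10 round spermatid markers had a median of log2 -0.51 with 1 falling, and the 11 spermatocyte markers -0.77 with 2 falling, beside a median of -0.82 over the 10 members and -0.15 over all genes tested. Summed over the list, the round spermatid markers ran from 147030.0 to 152422 units in SLCs and 197911 to 210749 in RS. With SLC and RS arrays centred on the round spermatid markers, an alternative chosen after seeing the data, 0 members passed 2-fold in limma, Plk1 was at log2 -0.50, Bub1b at -0.50 and Mad2l1 at 0.94, and Plk4 turned to 0.48. With each array centred on its own median 7 members were called, and by quantile normalization 4. Without SLC replicate 2 neither Plk1 (log2 -0.99) nor Bub1b (-0.87) passed 2-fold. Plk1 also missed it by quantile normalization (log2 -0.83) and without SLC replicate 3 or RS replicate 2, and Bub1b without SLC replicate 1 or RS replicate 1.

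**Figure D3:**
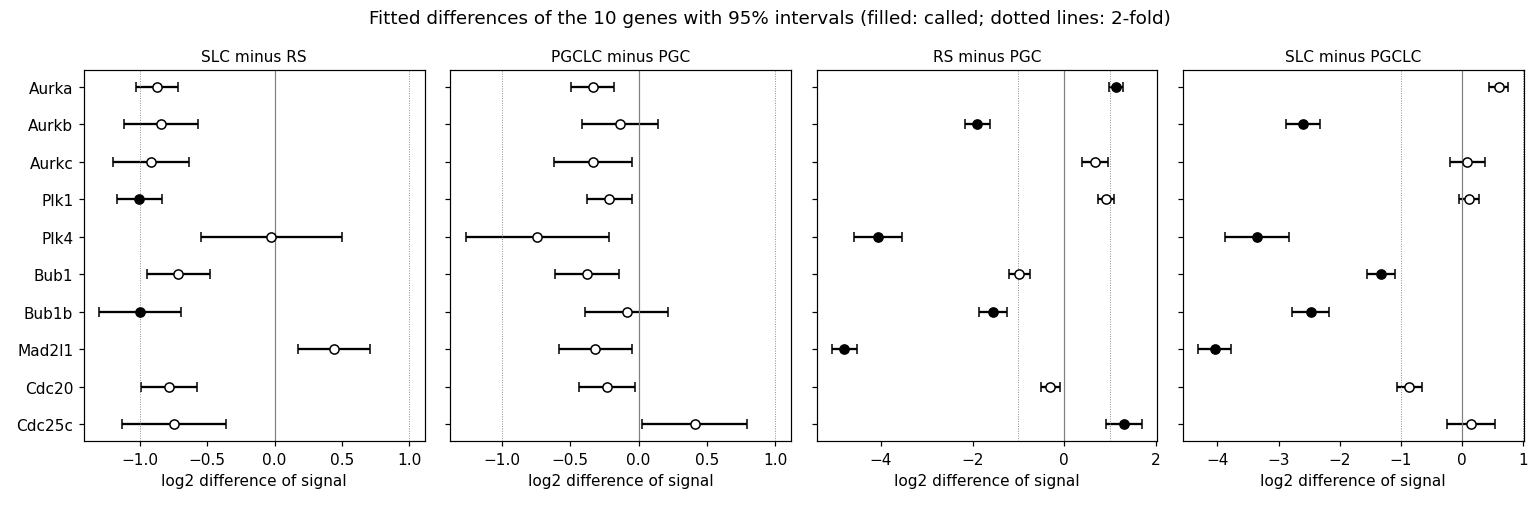
Fitted differences of the 10 genes on the log2 scale (horizontal axes) in 4 comparisons, with 95% intervals from limma. Filled points were called, open points were not, and dotted lines mark 2-fold. In SLC minus RS 8 genes lie between log2 -1.01 and -0.72, while in RS minus PGC the range runs from -4.80 for Mad2l1 to 1.30 for Cdc25c.

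The day 6 PGCLCs were set beside PGCs of the fetal gonad. No member passed 2-fold with limma, against 12% of all genes tested, and 7 were lower and 1 higher at an unadjusted p under 0.05, against 20.4% and 22.7% of all genes. Dropping the 2-fold minimum, Plk4, Bub1 and Aurka were lower at an adjusted p under 0.05, 3 of 10 members beside 13.4% of all genes. Plk4 had the widest difference (log2 -0.74, SE 0.24, limma adjusted p = 0.0381), and its probe sets B and C had the same sign (log2 -0.78 and -0.61, limma adjusted p = 0.00945 and 0.0341). Bub1 and Aurka followed at log2 -0.38 and -0.34 (limma adjusted p = 0.0234 and 0.00714). Cdc25c was the only member with a higher fitted value (log2 0.41, limma adjusted p = 0.0975), also on its second probe set (0.42).

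Several members differed among the PGCLC arrays more than among the PGC arrays. Plk4 (probe sets A, B and C) was lowest on PGCLC replicate 1 and highest on replicate 2. The brightest probe sets of Bub1, Cdc20, Aurka and Mad2l1 had the same order. For Aurka the SD was 239 units in PGCLCs and 38.2 in PGCs, and for Mad2l1 379 and 300. The second Bub1 probe set ran the other way, at 357, 226 and 296 units on PGCLC replicates 1, 2 and 3. The brightest Cdc25c probe set was highest on replicate 1 and lowest on replicate 2. The summed signal of 10 PGC marker genes was 30197, 62833 and 49015 units on PGCLC replicates 1, 2 and 3, and 68967 to 72979 in PGCs. The summed signal of 13 fetal gonad somatic markers was 4731, 13426 and 7872 units on the same PGCLC arrays and 4653 to 5739.7 in PGCs. That of 8 epiblast and mesoderm markers was 4446, 1618 and 3893 units on the PGCLC arrays and 1309.5 to 1447 in PGCs. In PGCLCs 3 of the 13 fetal gonad somatic markers rose and 0 fell, and 5 of the 8 epiblast and mesoderm markers rose and 1 fell. Of 10 blood and endothelium markers 4 rose and 1 fell, while 12% of all genes were called either way. The part of these lists in the members' values was not tested. Without PGCLC replicate 1 the Plk4 difference was log2 -0.50 (limma adjusted p = 0.135) and that of Bub1 -0.25 (0.0673). Both genes also missed an adjusted p of 0.05 by quantile normalization, with no intensity trend and without PGCLC replicate 3, PGC replicate 2 or PGC replicate 3, and Plk4 without PGC replicate 1 or SLC replicate 3 and with no filter as well. Bub1 missed it with the median over probe sets, while Aurka passed it with any single array left out. In a fit of the 6 PGCLC and PGC arrays alone none of the 3 genes passed an adjusted p of 0.05 (Plk4 0.121, Bub1 0.143, Aurka 0.0722).

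In SLCs relative to PGCLCs, the stage step in culture, Aurkb, Plk4 (probe set A), Bub1, Bub1b and Mad2l1 fell and no member rose. These are 5 of 10 members, against 27.4% of all genes called lower and 29.9% called higher, and 8 of 19 member probe sets fell, against 31.5% of all probe sets. Plk4 probe sets B and C had the opposite sign to probe set A, at log2 0.18 and 0.49 (limma adjusted p = 0.355 and 0.0314). Both were under 2-fold. The difference between the in vitro and the in vivo step was tested as an interaction, the SLC minus PGCLC difference less the RS minus PGC difference. It was called for Cdc25c (log2 -1.16, SE 0.25, limma adjusted p = 0.00286), also on its second probe set (log2 -1.44, limma adjusted p = 0.00285), beside 11.2% of all genes and 9.81% of all probe sets called lower. Without PGCLC replicate 1 it was log2 -0.999 for Cdc25c, under 2-fold. For Plk1 and Aurka the interaction was log2 -0.79 and -0.54 (limma adjusted p = 0.000123 and 0.00114), and for Mad2l1 0.76 (limma adjusted p = 0.00407), all under 2-fold. At an adjusted p under 0.05 with any fold, 7 members were lower and 1 higher, against 22% and 26.5% of all genes. In the same term 11 of 15 testis somatic markers (median log2 3.10) and 9 of 13 fetal gonad somatic markers (3.09) were called higher, and their part in the members' values was not tested.

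Partner genes of the 10 were described as lists, drawn up with earlier results of these data known. In RS relative to PGCs, 7 of 11 checkpoint partners fell and 2 rose, and 12 of 17 kinetochore genes fell and 2 rose. Of 10 chromosomal passenger and Aurora cofactor genes 5 fell and 2 rose, of 22 genes of the anaphase-promoting complex and separase 13 and 2, and of 13 genes around Cdk1 6 and 2. In the Polo family and centriole list 4 of 10 fell and 3 rose, and of 20 proliferation genes 16 fell and 0 rose, beside the 37.7% lower and 31.8% higher of all genes given above. The list medians were log2 -2.59 for proliferation, -1.74 for the checkpoint partners, -1.66 for the kinetochore, -1.60 for the anaphase-promoting complex and separase, -1.11 for the passenger and Aurora cofactors, -0.09 around Cdk1 and 0.11 for the Polo family and centriole list, beside -0.64 for the 10 members and -0.23 for all genes. In SLCs relative to PGCLCs, against 27.4% lower and 29.9% higher of all genes, 8 of 11 checkpoint partners fell and 1 rose, and 12 of 17 kinetochore genes fell and 1 rose. The counts of falls and rises were 8 and 2 of 10 for the passenger and Aurora cofactors, 6 and 2 of 13 around Cdk1, 12 and 0 of 22 for the anaphase-promoting complex and separase, and 19 and 0 of 20 for proliferation. The Polo family and centriole list had more rises than falls, 2 falls and 4 rises of 10.

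Single partners stood on both sides, and those of this paragraph were chosen after their values were seen. Trip13, an ATPase gene that acts on Mad2, fell 14.5-fold in RS relative to PGCs (383 ± 9.85 units in RS and 5538 ± 214 in PGCs), and Bub3, the partner of Bub1 and BubR1, fell 3.34-fold. Mki67, a marker of cycling cells, fell 11.2-fold (572 ± 77.5 units in RS and 6396 ± 605 in PGCs). Mad2l2, a Mad2-related gene, rose 19.3-fold (8333 ± 739 units in RS and 431 ± 30.8 in PGCs), Sass6, of the centriole cartwheel that Plk4 acts upon, rose 14.2-fold, and Kif2c, a microtubule-depolymerizing kinesin gene, rose 4.21-fold. Ttk, the kinase gene at the head of the checkpoint, was at log2 -0.66 and under 2-fold.

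Between SLCs and RS 24% of all genes were called higher and 3.44% lower, and at an unadjusted p under 0.05 32.9% were higher and 34.5% lower. Among the partners there were 0 higher and 0 lower of 17 kinetochore genes by limma and 1 and 12 at an unadjusted p under 0.05. The proliferation list likewise had 0 calls of 20, with 2 higher and 13 lower at an unadjusted p under 0.05. At the same p, 2 of 11 checkpoint partners were higher and 6 lower, and of 10 passenger and Aurora cofactors 1 and 8. Around Cdk1 the counts were 2 and 9 of 13, and for the anaphase-promoting complex and separase 7 and 10 of 22. The Polo family and centriole list had 2 and 6 of 10. In the Polo family, Plk2 rose 14.1-fold (2945 ± 227 units in SLCs and 209 ± 25.3 in RS, limma adjusted p = 6.72e-06), and Plk3 rose at least 12.7-fold, to 391 ± 41.5 units, against the floor on all RS arrays. Plk2 and Plk3 are known as stress-responsive relatives of Plk1. Sass6 and Cep135, both centriole genes, fell 2.04-fold and 2.05-fold. Zwint, a kinetochore adaptor gene, rose 2.93-fold, Ajuba, an Aurora A cofactor gene, 3.37-fold, the Cdk subunit gene Cks1b 2.88-fold, and Anapc4 and Cdc23, subunits of the anaphase-promoting complex, 3.36-fold and 2.89-fold. Foxm1, a transcription factor gene of the G2 and M phases, was at log2 -0.97, the motor gene Kif20a at -0.92, Ttk at -0.87, and Cenpf, Ndc80 and Kif23 at -0.97, -0.90 and -0.98, all under 2-fold. Ccne1, a G1 cyclin gene, was at log2 0.88. The rises stand beside the 13 testis somatic rises given above, and their part in them was not tested.

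**Figure D4:**
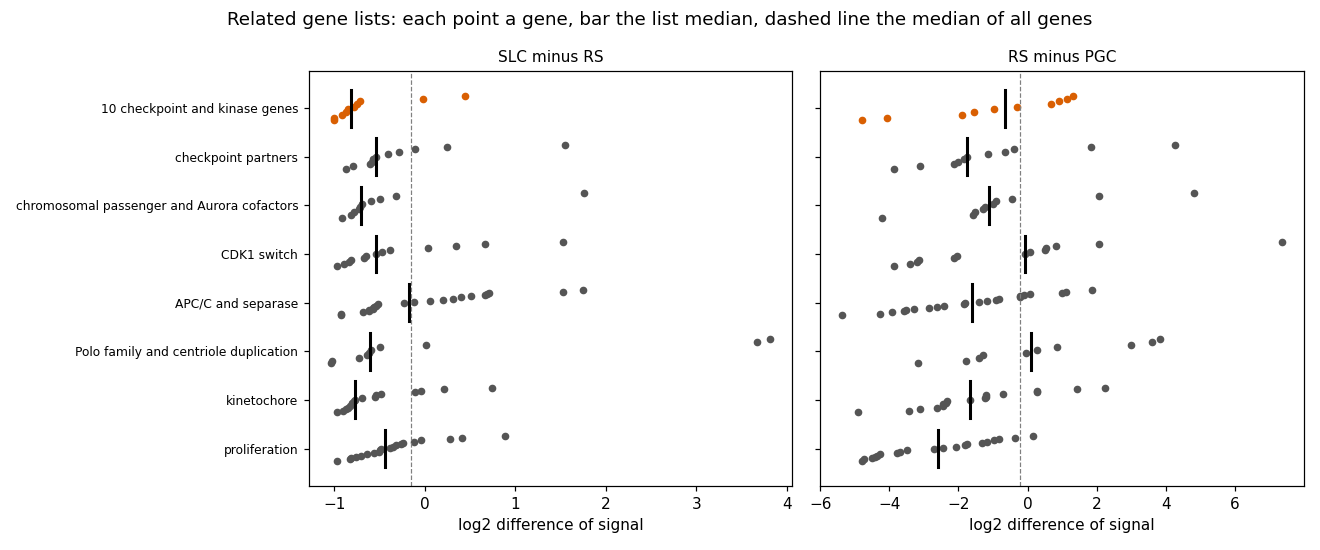
Differences of single genes on the log2 scale (horizontal axes) for the 10 checkpoint and kinase genes and 7 related lists, in SLC minus RS (left) and RS minus PGC (right). Each point is a gene, thick bars are list medians and the dashed line is the median of all genes tested. The median of the 10 genes was -0.82 in SLC minus RS and -0.64 in RS minus PGC, and that of the proliferation list -0.44 and -2.59.

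Between PGCLCs and PGCs the related lists held 1 call in all by limma, the rise of Plk2 by 6.78-fold (1357 ± 752 units in PGCLCs and 179.9 ± 55.1 in PGCs, limma adjusted p = 0.00133). At an unadjusted p under 0.05, 20.4% of all genes were lower and 22.7% higher. The lower and higher counts were 6 and 0 of 10 for the passenger and Aurora cofactors and 6 and 0 of 13 around Cdk1. They were 5 and 2 of 11 for the checkpoint partners and 7 and 0 of 17 for the kinetochore. The anaphase-promoting complex and separase had 8 and 0 of 22, proliferation 6 and 2 of 20, and the Polo family and centriole list 2 and 3 of 10. The largest differences in the other lists were under 2-fold or not past the adjusted p. Mad2l2 was at log2 0.95, Ttk at -0.48, Kif2c at -0.52 and Kif20a at -0.52. The kinase genes Nek2 and Wee1 were at -0.58 and -0.54, and Anapc1 and Anapc15 at -0.70 and -0.61. The kinetochore genes Pmf1 and Spc25 were at -0.76 and -0.68, Tyms and Ckap2 of the proliferation list at -0.48 and -0.46, and Plk5 at -1.09 (limma adjusted p = 0.196).

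Genes whose log2 signals ran most like those of 3 members over the 12 arrays (Plk1, Aurkc and Cdc25c, all highest in RS) were found by Pearson's r, taken over all 4 groups together. For Plk1 they were Dnajc21 (r = 0.982), Uqcrc1 (0.978) and Dhx34 (0.966). For Aurkc they were Ncoa6 (r = 0.963), Cfap20 (0.952) and Rmi1 (0.952), and for Cdc25c Hgh1 (r = 0.972), Acp1 (0.964) and Tedc1 (0.960). Among the members themselves, Aurkb, Bub1 and Bub1b correlated at 0.949 to 0.977, and Plk1 with Aurka and Aurkc at 0.932 and 0.919. Plk1 and Mad2l1 correlated at -0.615. The 12 points share their groups and the authors' scaling, so these values are a description.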

How the data were processed

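The labels give total RNA, biotin-labelled and hybridized to 1 array per sample, 12 in all. The deposited unit is a linear intensity for each probe set, and per the submitters' processing notes the tool was MAS5, without a version. The deposited values have a trimmed mean of 500.0 on every array, so the authors' scaling was kept. Array medians ran from 73.2 to 107 units. Detection calls and scan dates were not used here, and the number of arrays limits precision.

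Values under the 25th percentile of the table (30.7 units) were set to it before log2. Probe sets with a single gene symbol, checked by Entrez identifier, were kept if above the table median (92.0 units) on at least 3 arrays (24949 probe sets), and the brightest represented each of 14197 genes. All arrays entered 1 limma fit (limma 3.58.1, R 4.3.3) with 4 group means and an intensity trend. A gene was called at a Benjamini-Hochberg adjusted p under 0.05 over all genes and at least 2-fold. A second fit took every probe set. Folds are taken from the fitted log2 differences. "Rose" and "fell" are used of called genes only. All members were named, with the 2 widest differences per related list in SLC minus RS and PGCLC minus PGC. Replicate numbers are not stated to pair arrays, and correlations of same-numbered deviations ran from -0.0169 to 0.134. Differently numbered arrays were not compared, so these values cannot decide whether arrays were paired. In all 23 alternatives were tried, 1 of them chosen after seeing the data and run for SLC minus RS alone. The members and lists were chosen with earlier results of these data known.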

Additional observations from a re-analysis of the deposited data

Results flagged for a closer look

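The stage difference in culture (SLC minus PGCLC) was set against that in vivo (RS minus PGC) with an interaction term, and 8 of the 10 genes had a limma adjusted p under 0.05 for it, 7 lower and 1 higher, beside 22% of all genes lower and 26.5% higher. The term was log2 -1.16 for Cdc25c (limma adjusted p = 0.00286), the single one past 2-fold. It was -0.912 for Bub1b and -0.795 for Plk1 (limma adjusted p = 0.00279 and 0.000123). For the Aurora genes it was -0.709 for Aurkb, -0.587 for Aurkc and -0.54 for Aurka (limma adjusted p = 0.00675, 0.0206 and 0.00114), and for Cdc20 -0.557 (limma adjusted p = 0.00523). On the second Aurkb probe set it was -0.277 and on the dimmest Cdc20 one 0.163, neither past an adjusted p of 0.05 (limma adjusted p = 0.451 and 0.536). Mad2l1 had the opposite sign, 0.756 (limma adjusted p = 0.00407), and by quantile normalization its term was 0.0565 (limma adjusted p = 0.769). Others missed an adjusted p of 0.05 under single alternatives: Cdc20 by quantile normalization (0.0632), Aurka and Aurkc with median centring (0.0579 and 0.0683), Aurkc without PGC replicate 3 (0.0517) and Aurkb with the median over probe sets (0.0691). Bub1b passed 2-fold by quantile normalization and without SLC replicate 3 (log2 -1.38 and -1.06), and Aurkb by quantile normalization (-1.25). In the same term 11 of 15 testis somatic markers were called higher, and their part was not tested. The interaction shares its arrays with every other comparison given here.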

How the results depend on the processing

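On other scalings the number of members called moved. In SLC minus RS, 2 members and 3 member probe sets were called, against 4 and 7 by quantile normalization, 7 and 12 with median centring, and 0 and 0 with arrays centred on round spermatid markers, chosen after seeing the data (limma). In PGCLC minus PGC 0 of either became 1 and 2 with median centring (Plk4) and 0 and 1 with array weights, and in the interaction 1 and 2 became 3 and 5 by quantile normalization. The all-gene median of SLC minus RS was -0.15 as scaled by the authors and -0.41 with median centring, and higher calls made up 87.45% and 53.83%. For PGCLC minus PGC the medians were 0.0052 and -0.30 and the higher calls 86.47% and 52.29%. Centring on spermatid markers gave 0.36 and 99.48% in SLC minus RS. Quantile normalization gave higher shares of 55.4% (SLC minus RS), 73.62% (PGCLC minus PGC) and, in the interaction, 55.06% against 65.45%. A fit of the 6 PGCLC and PGC arrays called 177 genes in place of 1700, with 96.05% higher. With the replicate number as a block, 2 members were called in SLC minus RS, 0 in PGCLC minus PGC, 6 in RS minus PGC, 5 in SLC minus PGCLC and 1 in the interaction, and no count of calls moved by over 1.5 times. Leaving out each array in turn gave 0 to 2 members and 1 to 3 probe sets in SLC minus RS, 0 to 2 and 1 to 3 in the interaction, 6 to 7 and 9 to 10 in RS minus PGC, 5 and 8 to 9 in SLC minus PGCLC, 0 in PGCLC minus PGC, and 1067 to 2900 genes in PGCLC minus PGC. The interaction of Cdc25c passed 2-fold under 20 of 21 alternatives, and the falls of Mad2l1, Aurkb, Bub1b and Plk4 in RS minus PGC under all 22, with Plk4 at log2 -1.07 with the median over its probe sets. Signs turned for small differences. In SLC minus RS they turned for Mad2l1 (-0.157, quantile), for Plk4 (0.05721 to 0.07285 without SLC replicate 1 or 3 or RS replicate 2 or 3, from -0.2102 over single arrays left out, and 0.48 centred on spermatid markers), and for further probe sets of Cdc20 (0.0167), Aurkb (0.199) and Bub1b (0.411) centred likewise. The Bub1b one, 1447362_at, also turned without SLC replicate 2 or RS replicate 3 (0.3335 and 0.5126, lowest -0.5694). In SLC minus PGCLC it turned to 0.00542 with a floor of 1 unit and to 0.2005 and 0.2496 without SLC replicate 2 or PGCLC replicate 3 (lowest -0.769). Cdc25c turned to -0.327 with the median over probe sets and -0.0262 without PGCLC replicate 2 (highest 0.3055), and Plk4 probe set B to -0.0124 without PGCLC replicate 1 (highest 0.3654). In the interaction Plk4 turned to -0.081 with the median over probe sets, its probe set B to 0.08025 (quantile), 0.004732 (median centring) and -0.2318 to 0.146 without single arrays (0.07489 without SLC replicate 2, 0.02398 RS 2, 0.146 PGCLC 2, 0.03079 PGC 2), the dimmest Cdc20 probe set to -0.124 (quantile) and the second Bub1 one to 0.134 with a floor at the table median. In PGCLC minus PGC the second Aurkb probe set turned to 0.0107 without PGC replicate 1 (lowest -0.07589). The cause was not tested.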
